A study of Mus musculus with 9 samples.

Results

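The genes that write and erase DNA methylation were followed here in mouse embryonic stem cells: the methyltransferase genes Dnmt1, Dnmt3a, Dnmt3b and Dnmt3l, the Dnmt1 partner Uhrf1, and the dioxygenase genes Tet1, Tet2 and Tet3. They were chosen by gene symbol. All 8 symbols were found among the 33924 genes of the count table, and all 8 passed the filter on low counts that left 14772 genes for testing.

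DNA methylation in mammals is the addition of a methyl group to cytosine, mostly where a guanine follows. DNMT3A and DNMT3B place it on unmethylated DNA, helped by DNMT3L, a relative that has no catalytic activity of its own. DNMT1 copies it to the new strand after replication, and UHRF1 brings DNMT1 to hemimethylated sites. The TET enzymes oxidise methylcytosine, which leads to its loss. In mouse embryonic stem cells Dnmt3a and Dnmt3b are lower in the naive state and higher as cells move towards the primed state, whereas Tet1 and Tet2 are active in naive cells.

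The data are 9 RNA sequencing libraries of mouse embryonic stem cells labelled male, kept on gelatin in serum medium with the cytokine LIF. There were 3 libraries of UTX knockout cells, 3 labelled as MLL4 knockdown and 3 of wild type cells, all without further treatment. UTX, encoded by Kdm6a, is a histone H3K27 demethylase, and MLL4, encoded by Kmt2d, is a histone H3K4 methyltransferase of enhancers. The study set them in 1 network with the acetyltransferase p300, so the comparisons ask which genes depend on either protein. The UTX knockout libraries are titled A6, those labelled MLL4 knockdown JM8A with a further number, and the wild type libraries JM8A. The labels do not explain these names. The 4 tested genes of chromosome Y had a median log2 difference from wild type of -3.93 in the UTX knockout and -4.18 in the labelled MLL4 knockdown, though these libraries too are labelled male. For the 537 tested genes of chromosome X the medians were 0.03 and 0.06. Whether chromosome Y was lost was not tested. The 776 tested genes of chromosome 8 had medians of -0.44 and -0.42 in the same comparisons, and the 985 of chromosome 4 had -0.15 and -0.21. None of the 8 genes lies on these chromosomes. The effect of the perturbation and that of the line or clone cannot be told apart. Whether the libraries of a group are separate cultures is not stated, so the spread behind each p-value is that between libraries and may be technical.

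Total counts per library lay between 18570746 and 23874816. Kdm6a stood at 12.8, 16.9 and 19.4 CPM (counts scaled to library size with TMM) in the UTX knockout, against 89, 57.1 and 90.6 CPM in wild type. Kmt2d, here under the symbol Mll2, had 71, 72 and 73.4 CPM in those labelled MLL4 knockdown, against 109.7, 96.9 and 130.1 CPM in the UTX knockout and 86.2, 43.5 and 119 CPM in wild type. The labelled MLL4 knockdown libraries lay below every other library but wild type replicate 2, and only through that library did they overlap with wild type. Whether Kmt2d was knocked down cannot be told from these overlapping levels, so the label is kept as given. The 9 embryonic stem cell markers were present in every library. Wild type replicate 2 stood apart: its level fell by 0.735 on the log2 scale for each 10-fold gain in transcript length, where the slopes of the other libraries lay between -0.0271 and 0.223. Replicates 1 and 3 of every group were run in lane 2 and replicate 2 in lane 1.

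Per kilobase of the longest coding transcript, the order of the 8 genes differed between groups. This scale compares genes only as far as that transcript is the one expressed, which counts per gene do not show. In the labelled MLL4 knockdown libraries Uhrf1 led with 148 ± 7.03 CPM per kilobase, ahead of Dnmt1 (99.3 ± 3.93), Tet1 (79.7 ± 3.28) and Dnmt3l (48.2 ± 13; SD, n = 3 each). The lower levels there, in CPM per kilobase, were 21.6 ± 3.05 for Tet2, 18.8 ± 4.64 for Dnmt3b, 12.9 ± 2.02 for Dnmt3a and 2.32 ± 0.0319 for Tet3. UTX knockout cells had Dnmt3l highest at 248 ± 23.2 CPM per kilobase, then Uhrf1 at 202 ± 7.55, Dnmt1 at 108 ± 5.5 and Tet1 at 64.8 ± 1.21. Below them, in the same unit, came Dnmt3b at 28.6 ± 5.67, Tet2 at 25.4 ± 1.97, Dnmt3a at 18.2 ± 2.56 and Tet3 at 1.5 ± 0.26. Wild type cells also had Dnmt3l highest, at 345 ± 67.1 CPM per kilobase, followed by Uhrf1 at 146 ± 1.22 and Dnmt1 at 89.5 ± 12.5. Dnmt3b (83.2 ± 33.3 CPM per kilobase) and Tet1 (50.7 ± 20.1) came next in wild type, and then Dnmt3a (27.6 ± 5.81), Tet2 (15.6 ± 6.67) and Tet3 (1.23 ± 0.389). Among neighbours in the wild type order, the libraries of Dnmt1 and Dnmt3b overlapped, as did those of Dnmt3b and Tet1 and those of Tet1 and Dnmt3a. Tet3 was the lowest of the 8 in every library, and Dnmt3l held the fourth place in the labelled MLL4 knockdown libraries, against the top place in UTX knockout and wild type cells.

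The genes for de novo methylation lay lower in both perturbed groups than in wild type, though the difference of Dnmt3l in the UTX knockout did not pass. Dnmt3b, the de novo enzyme most abundant in early embryonic cells, had 152, 110.2 and 108 CPM in the UTX knockout, 104, 73 and 66.5 CPM in the labelled MLL4 knockdown libraries, and 523, 254 and 301 CPM in wild type. The 3 groups did not overlap, and replicate 1 was the highest library of each. Dnmt3b fell by 1.54 on the log2 scale in the UTX knockout (SE 0.26, 95% interval -2.12 to -0.96, adjusted p = 0.00423, edgeR quasi-likelihood test with Benjamini-Hochberg adjustment over all tested genes). In the labelled MLL4 knockdown libraries it fell by 2.15 (SE 0.27, 95% interval -2.74 to -1.55, adjusted p = 0.00029), to 22.6% of the wild type level. Between these libraries and the UTX knockout the log2 difference was -0.61 (SE 0.26, adjusted p = 0.104). With replicate number as a block it was -0.62 (adjusted p = 0.00315), which passed.

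Dnmt3a, the second de novo enzyme, stood at 205, 161 and 163 CPM in the UTX knockout, 147, 113 and 114 CPM in the labelled MLL4 knockdown libraries, and 332, 229.8 and 239.9 CPM in wild type. Again no group overlapped another and replicate 1 was highest in each. Dnmt3a fell by 0.60 in the UTX knockout (SE 0.17, edgeR adjusted p = 0.0343) and, with a log2 change of -1.10, in those labelled MLL4 knockdown (SE 0.17, adjusted p = 0.00096). The direct comparison of the perturbed groups gave -0.50 (SE 0.17, adjusted p = 0.0459). The fall in the UTX knockout is close to the threshold. It was not called without wild type replicate 1 (-0.40, adjusted p = 0.093), UTX knockout replicate 2 (-0.54, 0.137) or 3 (-0.53, 0.132), or replicate 2 or 3 of the labelled MLL4 knockdown (-0.60 in both, 0.0525 and 0.0519).

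Dnmt3l, the cofactor without catalytic activity, had 408, 493 and 453 CPM in the UTX knockout, 115, 77.7 and 70.9 CPM in the labelled MLL4 knockdown libraries, and 554, 769.7 and 562 CPM in wild type. All 3 libraries labelled MLL4 knockdown lay far below every other library, and the UTX knockout lay below wild type without overlap. Dnmt3l fell by 2.84 in the labelled MLL4 knockdown libraries against wild type (SE 0.20, 95% interval -3.28 to -2.40, adjusted p = 7.79e-06, edgeR), to 14% of the wild type level. Against the UTX knockout it fell by 2.36 (SE 0.20, adjusted p = 3.2e-05), so the perturbed groups differed from each other. UTX knockout against wild type gave -0.48 (SE 0.19, 95% interval -0.89 to -0.07, adjusted p = 0.105), which did not pass. Of the 14772 tested genes, Dnmt3l ranked number 185 from the largest fall in the labelled MLL4 knockdown against wild type, and Dnmt3b number 421. In bulk RNA, fewer cells with a transcript and less of it per cell cannot be told apart.

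**Figure D1:**
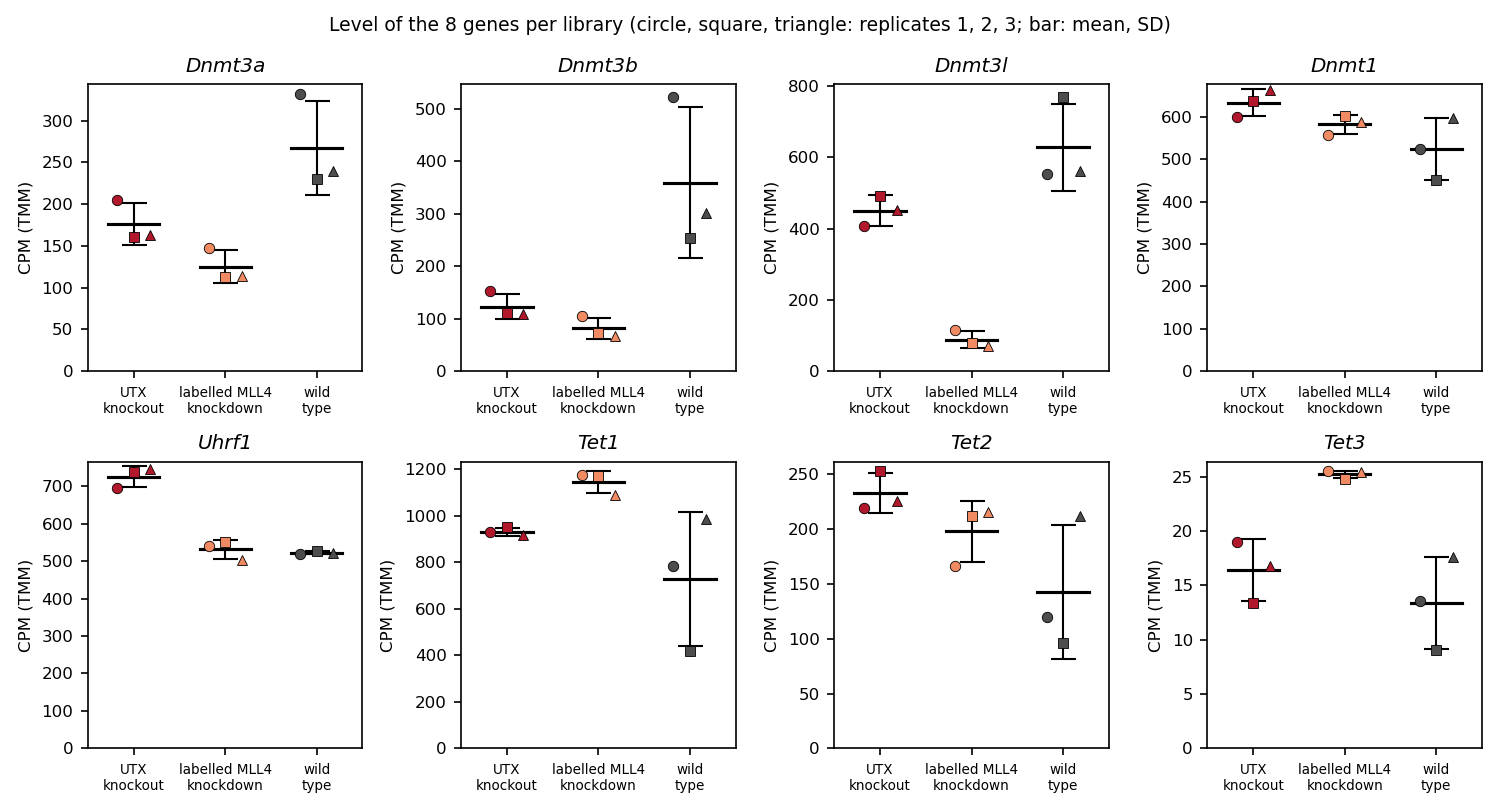
Level of each of the 8 genes in CPM scaled with TMM (y axis, from 0) in the 3 UTX knockout, 3 labelled MLL4 knockdown and 3 wild type libraries; circles, squares and triangles are replicates 1, 2 and 3, the wide bar is the mean and the whiskers are the SD. Dnmt3l averaged 451, 87.8 and 629 CPM in these groups, and wild type replicate 2 was the lowest of all libraries for Tet1, at 417 CPM.

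The sequences just upstream of the annotated starts of the 3 Dnmt3 genes are shown because these genes were lower together in the labelled MLL4 knockdown libraries, with different depths of fall. Each is the 250 bases before the most upstream start of the gene in RefSeq (mouse build GRCm38.p6), 5′ to 3′ on the gene's strand. Capitals mark the GC box, GGGCGG or its complement CCGCCC, the letters bound by Sp1-type factors.
Dnmt3a, chr12:3806730-3806979, plus strand: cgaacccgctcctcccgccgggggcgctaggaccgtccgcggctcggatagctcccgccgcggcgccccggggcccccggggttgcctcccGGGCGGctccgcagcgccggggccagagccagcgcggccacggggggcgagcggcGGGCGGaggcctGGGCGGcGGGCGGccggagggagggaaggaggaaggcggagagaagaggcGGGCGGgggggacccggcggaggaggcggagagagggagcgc
Dnmt3b, chr2:153649199-153649448, plus strand: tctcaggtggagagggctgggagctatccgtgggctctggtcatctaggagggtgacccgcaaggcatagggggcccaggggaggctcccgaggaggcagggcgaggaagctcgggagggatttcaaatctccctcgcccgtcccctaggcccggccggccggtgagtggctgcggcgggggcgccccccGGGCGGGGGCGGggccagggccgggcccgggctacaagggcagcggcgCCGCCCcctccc
Dnmt3l, chr10:78042037-78042286, plus strand: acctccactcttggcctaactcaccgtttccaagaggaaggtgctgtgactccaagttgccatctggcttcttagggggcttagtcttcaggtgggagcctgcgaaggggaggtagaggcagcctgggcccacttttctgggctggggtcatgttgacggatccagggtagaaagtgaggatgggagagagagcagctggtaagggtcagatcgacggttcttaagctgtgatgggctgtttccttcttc
The Dnmt3a window held 38 CpG and 5 GC boxes, the Dnmt3b window 21 CpG and 3 GC boxes (a pair of them adjoining), and the Dnmt3l window 5 CpG and 0 GC boxes. Over 32851 windows of the same length before annotated mouse starts the median was 6 CpG, and 32.7% held a GC box on either strand. The 2 other annotated starts of Dnmt3a had 40 and 15 CpG with 4 and 1 GC boxes, and those of Dnmt3l 4 and 3 CpG with 2 and 0 GC boxes, while Dnmt3b had 1 start. None of the 3 printed windows held CACGTG (6.02% of all windows), ATGCAAAT (1.6%), TATAAA (12.4%) or CCAAT (33.8%) on either strand. CACGTG did occur before the third start of Dnmt3a and the second start of Dnmt3l. GC boxes also stood before starts of Dnmt1, Uhrf1, Tet1, Tet2 and Tet3, so they are not particular to the Dnmt3 genes. Counts per gene do not show which start was used.

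Summed per kilobase, the 3 Dnmt3 genes gave 280.2, 312 and 291 CPM in the UTX knockout, 102, 71.2 and 66 CPM in the labelled MLL4 knockdown libraries, and 459, 505 and 403 CPM in wild type. No group overlapped another on this sum. The make-up of the sum differed too. Dnmt3l supplied 84 ± 3.57% of it in the UTX knockout, 60.1 ± 1.36% in the labelled MLL4 knockdown libraries and 75.5 ± 8.81% in wild type (SD, n = 3). Dnmt3a supplied 16.4 ± 1.44% in the labelled MLL4 knockdown libraries, against 6.21 ± 1.18% in the UTX knockout and 6.1 ± 1.38% in wild type. Per kilobase, Dnmt3b exceeded Dnmt3a by a ratio of 1.56 ± 0.0873 in UTX knockout cells and 1.45 ± 0.134 in those labelled MLL4 knockdown, against 2.94 ± 0.542 in wild type. This ratio was between 2.47 and 3.54 in the wild type libraries, above all 6 perturbed ones. Its size rests on the transcript lengths used. In CPM, without lengths, Dnmt3b averaged below Dnmt3a in the UTX knockout (123 against 176) and the labelled MLL4 knockdown (81.2 against 125). In wild type Dnmt3b averaged above Dnmt3a (359 against 267 CPM). These sums and ratios are descriptions, since an exact permutation test of 3 against 3 cannot give a p below 0.1.

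Of the maintenance genes, Uhrf1 changed in the UTX knockout, and neither Uhrf1 nor Dnmt1 passed in the labelled MLL4 knockdown against wild type. Uhrf1, which reads hemimethylated DNA, had 695, 738 and 745 CPM in the UTX knockout, 541, 551 and 503 CPM in the labelled MLL4 knockdown libraries, and 518, 527 and 522 CPM in wild type. The UTX knockout libraries were above all others, while the remaining groups overlapped. Uhrf1 rose by 0.47 in the UTX knockout (SE 0.09, 95% interval 0.27 to 0.68, edgeR adjusted p = 0.00768), to 139% of wild type. For the labelled MLL4 knockdown the log2 difference from wild type was 0.03 (95% interval -0.18 to 0.23, adjusted p = 0.868), and against the UTX knockout Uhrf1 fell by 0.45 (SE 0.09, adjusted p = 0.00494).

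Dnmt1, the maintenance methyltransferase, had 601, 638 and 665 CPM in the UTX knockout, 557, 602 and 589 CPM in the labelled MLL4 knockdown libraries, and 525, 452 and 598 CPM in wild type. The lowest UTX knockout library lay just above the highest wild type library, and the labelled MLL4 knockdown overlapped with both groups. The log2 differences from wild type were 0.27 (95% interval 0.02 to 0.53, edgeR adjusted p = 0.135) for the UTX knockout and 0.15 (95% interval -0.11 to 0.41, adjusted p = 0.371) for the labelled MLL4 knockdown. Between the perturbed groups it was -0.12 (adjusted p = 0.458). These intervals leave room for a change of Dnmt1 of up to about the size seen for Uhrf1, so equal levels were not shown.

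Tet genes were higher on average in both perturbed groups than in wild type, but the wild type libraries were spread widely and only Tet3 passed in the fit with group alone. Tet3, a member better known from the zygote and from neural cells, had 19, 13.4 and 16.8 CPM in the UTX knockout, 25.5, 24.8 and 25.4 CPM in the labelled MLL4 knockdown libraries, and 13.6, 9.08 and 17.6 CPM in wild type. The libraries labelled MLL4 knockdown lay above all others, and UTX knockout and wild type overlapped. Tet3 rose by 0.91 in the labelled MLL4 knockdown libraries against wild type (SE 0.21, 95% interval 0.44 to 1.38, edgeR adjusted p = 0.00973) and by 0.62 against the UTX knockout (SE 0.21, adjusted p = 0.0467). The second of these calls was lost when UTX knockout replicate 2 (0.50, adjusted p = 0.17) or 3 (0.64, 0.111) was left out, and likewise replicate 1 (0.62, 0.108), 2 (0.64, 0.103) or 3 (0.62, 0.11) of the labelled MLL4 knockdown. UTX knockout against wild type gave 0.29 for Tet3 (95% interval -0.18 to 0.76, adjusted p = 0.39).

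Tet1, the most abundant of the 3 in embryonic stem cells, had 928, 950 and 916 CPM in the UTX knockout, 1176, 1169 and 1091 CPM in the labelled MLL4 knockdown libraries, and 785, 417 and 986 CPM in wild type. The libraries labelled MLL4 knockdown were above all others, and wild type replicate 3 was above the UTX knockout. The log2 difference of the labelled MLL4 knockdown from wild type was 0.65 (SE 0.23, 95% interval 0.14 to 1.16, edgeR adjusted p = 0.0584). It passed with replicate number as a block (0.70, adjusted p = 0.0262). Without wild type replicate 2 the difference was smaller but passed (0.37, adjusted p = 0.034), and leaving out wild type replicate 3 gave 0.93 (adjusted p = 0.0123). Tet1 gave 0.35 in the UTX knockout against wild type (95% interval -0.15 to 0.86, adjusted p = 0.328), and 0.07 (adjusted p = 0.694) without wild type replicate 2. The difference between the perturbed groups was 0.30 (adjusted p = 0.358), and 0.30 (adjusted p = 0.0374) without wild type replicate 2.

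Tet2 had 219, 253 and 226 CPM in the UTX knockout, 166, 212 and 216 CPM in the labelled MLL4 knockdown libraries, and 120.2, 96.1 and 212 CPM in wild type. Here the UTX knockout lay above all libraries of the other groups, and wild type replicate 3 stood with the perturbed cells. The log2 difference of the UTX knockout from wild type was 0.70 (SE 0.24, 95% interval 0.18 to 1.23, edgeR adjusted p = 0.0662). With replicate number as a block it passed, at 0.76 (adjusted p = 0.0191), and leaving out wild type replicate 3 gave 1.11 (adjusted p = 0.00405). Leaving out wild type replicate 2 gave 0.49 (adjusted p = 0.155). In the labelled MLL4 knockdown libraries Tet2 differed from wild type by 0.47 (95% interval -0.05 to 0.99, adjusted p = 0.166), by 0.26 (0.407) without wild type replicate 2 and by 0.88 (0.00367) without wild type replicate 3. The perturbed groups differed by -0.23 (adjusted p = 0.495).

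**Figure D2:**
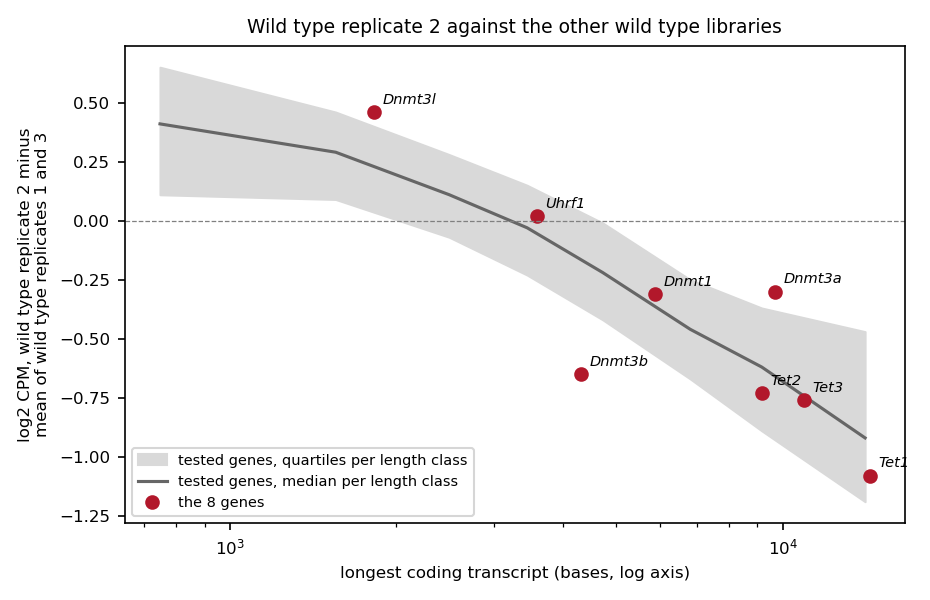
Difference in log2 CPM between wild type replicate 2 and the mean of wild type replicates 1 and 3 (y axis) against the length of the longest coding transcript (x axis, bases, log scale); the line and band are the median and quartiles of tested genes per length class, and the points are the 8 genes. Tet1, the longest at 14369 bases, was 1.08 lower on the log2 scale in replicate 2, and Dnmt3l, the shortest at 1822 bases, was 0.46 higher.

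Wild type replicate 2, in which longer transcripts were lower, touched the Tet genes most. In that library Tet1 differed by -1.08 on the log2 scale from the mean of the other wild type libraries, Tet2 by -0.73 and Tet3 by -0.76. Their transcripts are 14369, 9179 and 10904 bases long. Dnmt3a, at 9685 bases, differed by -0.30, above the quartiles of its length class (-0.89 to -0.37). Dnmt3l, at 1822 bases, differed by 0.46 and Uhrf1, at 3586 bases, by 0.02. Dnmt3b differed by -0.65 at 4320 bases, below the quartiles of genes of its length. Without wild type replicate 2, Tet3 still rose in the labelled MLL4 knockdown libraries (0.70, edgeR adjusted p = 0.0162). The falls there were -2.67 for Dnmt3l (adjusted p = 3.24e-05), -2.34 for Dnmt3b (0.000349) and -1.19 for Dnmt3a (0.00141). The UTX knockout calls without that library were -1.74 for Dnmt3b (adjusted p = 0.00413), -0.70 for Dnmt3a (0.0285) and 0.48 for Uhrf1 (0.00911).

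Summed per kilobase, the Tet genes gave 90.2, 94.9 and 89.9 CPM in the UTX knockout, 102, 107 and 102 CPM in the labelled MLL4 knockdown libraries, and 68.9, 40.3 and 93.3 CPM in wild type. Tet1 supplied 70.7 ± 1% of the sum in the UTX knockout, 76.9 ± 2.81% in the labelled MLL4 knockdown libraries and 74.9 ± 3.82% in wild type. The ratio of the Dnmt3 sum to the Tet sum was 3.11, 3.29 and 3.23 in the UTX knockout, 1, 0.668 and 0.648 in the labelled MLL4 knockdown libraries, and 6.66, 12.5 and 4.32 in wild type. No group overlapped another on this ratio. Its highest value, 12.5, belongs to wild type replicate 2, the library with the length trend, and the transcripts of Dnmt3b and Dnmt3l are shorter than those of the Tet genes.

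**Figure D3:**
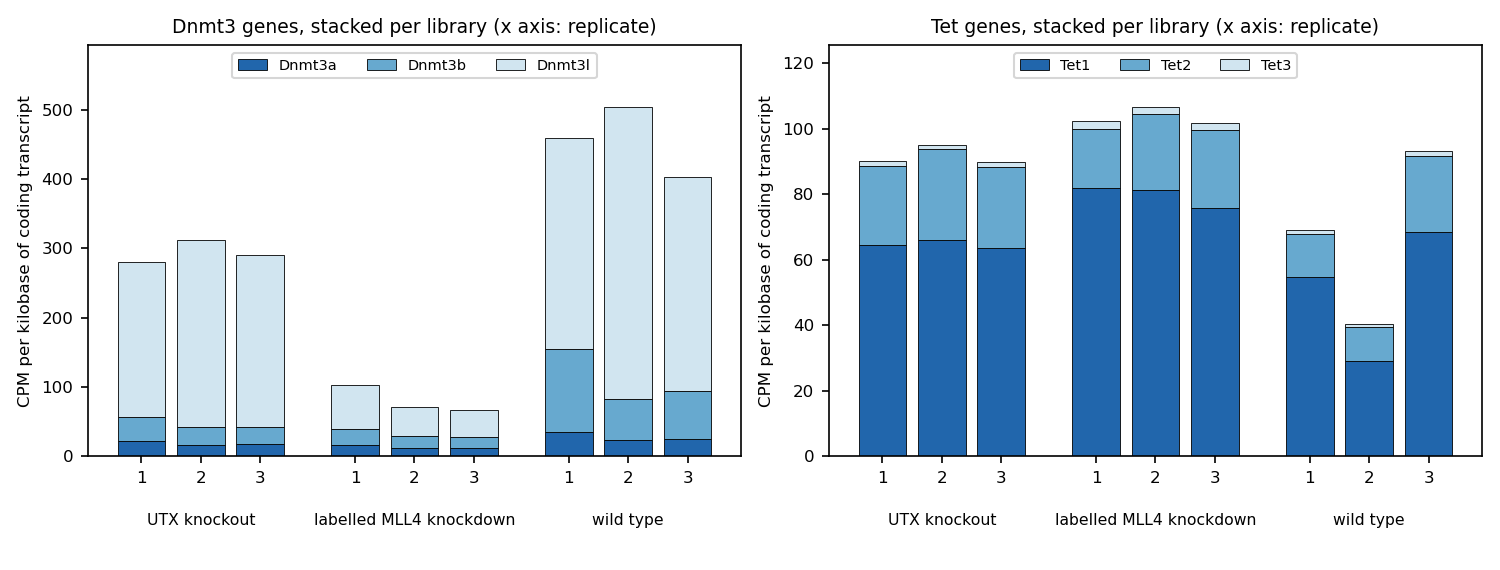
Stacked CPM per kilobase of coding transcript (y axis, from 0) of Dnmt3a, Dnmt3b and Dnmt3l at left and of Tet1, Tet2 and Tet3 at right, with a bar for each replicate of the UTX knockout, labelled MLL4 knockdown and wild type groups. The Dnmt3 bars reach 280.2 to 312, 66 to 102 and 403 to 505 in these groups, and the wild type Tet bars range from 40.3 to 93.3.

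Counted over the 8 genes, 1 rose and 2 fell in the UTX knockout against wild type, where 15.5% of all 14772 tested genes were called, 6.55% as higher and 8.92% as lower. That is 2285 genes, and 3446 (23.3%) with replicate number as a block, when 4 of the 8 were called. Against wild type, the labelled MLL4 knockdown libraries had 1 of the 8 higher and 3 lower, beside 26.6% of all tested genes called, 10.8% as higher and 15.8% as lower (34.1% and 5 of the 8 with the block). Between the labelled MLL4 knockdown and the UTX knockout, 1 of the 8 rose and 3 fell, beside 28.9% called, 13.0% as higher and 16.0% as lower (36.7% and 5 of the 8 with the block). Without wild type replicate 2 the shares of all genes were 13.3%, 24.5% and 35.3% in the 3 comparisons, beside 3, 5 and 5 of the 8. Groups did not overlap for 6 of the 8 genes in the UTX knockout against wild type, beside 31.5% of all tested genes. They did not overlap for 5 of 8 in the labelled MLL4 knockdown against wild type, beside 42.9%, and for 7 of 8 between the perturbed groups, beside 52.6%. The median log2 difference of the 8 genes was 0.28 in the UTX knockout and 0.09 in the labelled MLL4 knockdown against wild type, beside -0.01 and -0.02 over all tested genes. Both comparisons share the wild type libraries.

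**Figure D4:**
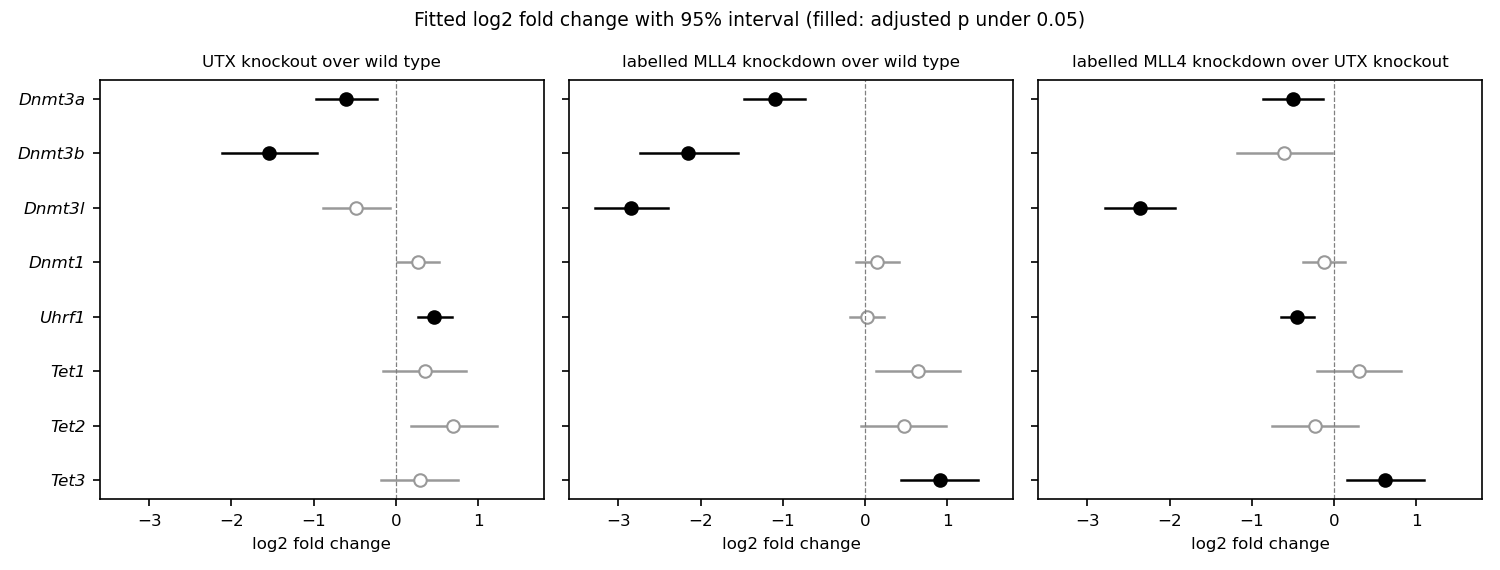
Fitted log2 fold change (x axis) of each of the 8 genes with its 95% interval, for the UTX knockout over wild type, the labelled MLL4 knockdown over wild type, and the labelled MLL4 knockdown over the UTX knockout; filled black points have an adjusted p under 0.05. The Dnmt3 genes lie left of 0 in all 3 comparisons, and Dnmt3l at -2.84 and -2.36 is the farthest from 0 in the comparisons of the labelled MLL4 knockdown.

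Dnmt3l lies next to Aire, the autoimmune regulator gene known from the thymus. In GENCODE M21 these genes are on opposite strands of chromosome 10 and overlap for 1664 bases, 67 of them exonic in both. Whether reads were counted by strand is not given in the sources used here, so reads from these 67 bases cannot be told apart. Aire had 71.4, 74.5 and 80.9 CPM in the UTX knockout, 8.5, 9.28 and 11.1 CPM in the labelled MLL4 knockdown libraries, and 51.1, 62.8 and 67.1 CPM in wild type. It was lower in all 3 libraries labelled MLL4 knockdown than in any other, and fell by 2.65 there against wild type (SE 0.15, edgeR adjusted p = 2.42e-06) and, with a log2 change of -2.97, against the UTX knockout (SE 0.15, adjusted p = 1.74e-06). In the UTX knockout its log2 difference from wild type was 0.33 (adjusted p = 0.126, and 0.0412 with replicate number as a block), on the other side of 0 from that of Dnmt3l.

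The 4 tested genes on either side of Dnmt3l were looked at because of the values of Aire. Icosl, a costimulatory ligand gene and the next one downstream, fell by 0.75 in the labelled MLL4 knockdown libraries against wild type (SE 0.17, edgeR adjusted p = 0.00923). Of the remaining 6 genes none passed, with log2 differences between -0.33 for Pfkl (adjusted p = 0.172) and 0.36 for D10Jhu81e (0.107). Neither Aire nor any other of the 8 neighbours passed in the UTX knockout against wild type. The median over the 667 tested genes of chromosome 10 was 0.03 in the labelled MLL4 knockdown against wild type.

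**Figure D5:**
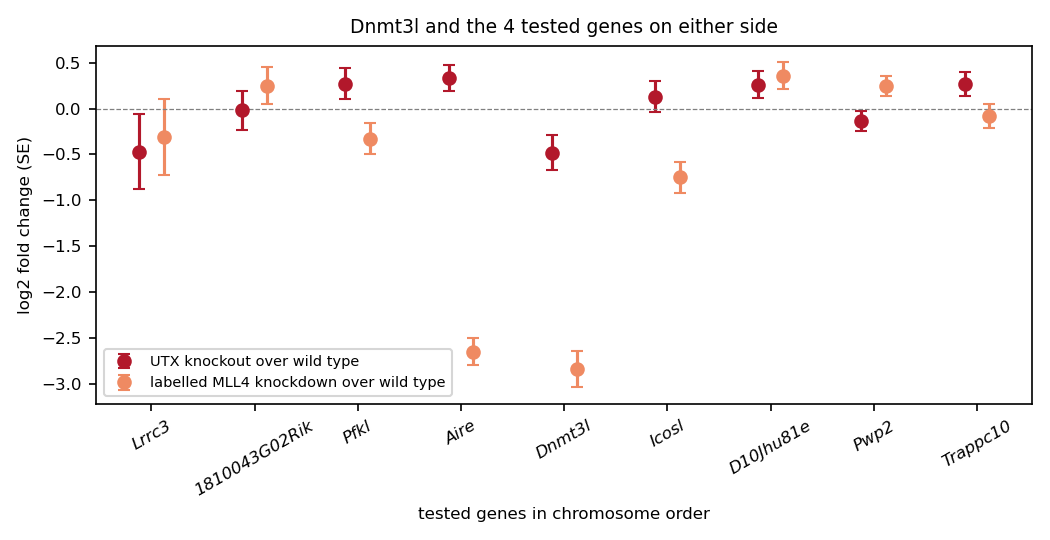
Log2 fold change with its SE (y axis) of Dnmt3l and the 4 tested genes on either side in chromosome order (x axis), for the UTX knockout over wild type and the labelled MLL4 knockdown over wild type. Aire at -2.65 and Dnmt3l at -2.84 stand next to each other in the labelled MLL4 knockdown, with Icosl at -0.75 and the other genes between -0.33 and 0.36.

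Some annotated genes overlap other members as well: 133 exonic bases of Dnmt3a are shared with the antisense RNA Dnmt3aos and 43 of Tet2 with Gm42567. Dnmt1, Dnmt3b, Tet1 and Tet3 shared 0 exonic bases with the genes that overlap them, and no gene overlapped Uhrf1.

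For each gene called against wild type, the genes with the most similar pattern were sought by Pearson correlation of log2 CPM over the 9 libraries, among 8972 genes, as a description. The 9 points share 3 groups and the replicate pattern, and no p is given. Nearest to Dnmt3a were Ptpn13, a protein tyrosine phosphatase (r = 0.988), Dnmt3b (0.981) and Nrsn1 (0.976), and nearest to Dnmt3b were Dnmt3a (0.981), the phospholipase Plcg2 (0.980) and Gpbp1l1 (0.975). Ptpn13 had 30.3, 25.7 and 25.8 CPM in the UTX knockout, 18.5, 12.3 and 13.5 CPM in the labelled MLL4 knockdown, and 77, 35.9 and 47.2 CPM in wild type, with replicate 1 highest in each group as for Dnmt3a. Dnmt3l was nearest to the histone deacetylase gene Hdac1 (r = 0.990), Lace1 (0.986) and the lipase gene Liph (0.982). Hdac1 varied far less than Dnmt3l, with 327, 321 and 317 CPM in the UTX knockout, 243, 216 and 230.5 CPM in the labelled MLL4 knockdown, and 335, 358 and 331 CPM in wild type. Uhrf1 was nearest to Aldh4a1 (0.981), Ptcd1 (0.969) and the arginine methyltransferase gene Prmt8 (0.969), and Tet3 to Asap1 (0.984), Enah, an actin regulator (0.975), and Nab1 (0.972). Among the 8 genes themselves, Tet3 correlated with Tet1 at 0.894 and with Dnmt3l at -0.868.

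Genes around the methylation machinery were counted in fixed lists, each given as the number that passed of those tested. Over all tested genes 15.5% were called in the UTX knockout and 26.6% in the labelled MLL4 knockdown against wild type. Here and in the lists below, a count near that share does not set a list apart from other genes. Of 8 maintenance cofactors, 1 fell in each comparison with wild type and none rose, and the gene was Dppa3, which keeps UHRF1 off chromatin. Dppa3 had 14.7, 10.3 and 10.5 CPM in the UTX knockout, 3.77, 3.62 and 3.32 CPM in the labelled MLL4 knockdown, and 38.2, 39.7 and 25 CPM in wild type. No group overlapped another, and Dppa3 fell by 1.53 in the UTX knockout (SE 0.20, edgeR adjusted p = 0.00112) and, with a change of -3.26, in the labelled MLL4 knockdown (SE 0.22, adjusted p = 7e-06). The median of this list was 0.01 and 0.11, beside -0.01 and -0.02 over all tested genes.

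Of 12 genes of heterochromatin and imprint protection, 0 passed in the UTX knockout by edgeR (median -0.00), and 4 rose and 1 fell in the labelled MLL4 knockdown (median 0.18; 2 and 1 without its replicate 1 or 3, and 4 and 3 without wild type replicate 1). Suv39h1, an H3K9 methyltransferase, rose by 0.97 in the labelled MLL4 knockdown (SE 0.14, adjusted p = 0.000809), with 45.6, 48.5 and 49.6 CPM there against 28.2, 25.3 and 20.02 CPM in wild type. Zfp57, which protects imprints, rose by 0.89 there (SE 0.21, adjusted p = 0.00919), and its log2 difference in the UTX knockout was 0.61 (adjusted p = 0.065, and 0.015 with replicate number as a block). Cbx1, a heterochromatin protein 1 gene, fell by 0.51 in the labelled MLL4 knockdown (adjusted p = 0.00639). Of 5 H3K36 methyltransferases, whose mark is read by the DNMT3 enzymes, 0 passed in the UTX knockout and 3 rose in the labelled MLL4 knockdown: Ash1l (0.82, adjusted p = 0.032), Nsd1 (0.54, 0.0395) and Whsc1 (0.45, 0.0495). The medians of this list were 0.13 and 0.45. Wild type replicate 2 had the lowest wild type level of all 3, and without it 2 rose and 1 fell, with Whsc1 at 0.32 (adjusted p = 0.117). Of the 9 fits that each left out a library, the call of Ash1l ended in 3 (each without a labelled MLL4 knockdown library, adjusted p up to 0.0912). That of Nsd1 ended in 6, without wild type replicate 1, UTX knockout replicate 2 or 3 or any labelled MLL4 knockdown library (up to 0.107), and that of Whsc1 in all but the one without wild type replicate 1 (up to 0.132). None of the 5 was called when any 1 labelled MLL4 knockdown library was left out.

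Of 10 methyl-CpG readers, 1 rose in the UTX knockout (median 0.12), and 3 rose in the labelled MLL4 knockdown (median 0.29; 0 without its replicate 1 or 2 and 1 without its replicate 3). The first was Mbd4, a thymine glycosylase, which rose by 0.73 (SE 0.15, edgeR adjusted p = 0.009), with 52.5, 66.2 and 63.7 CPM in the UTX knockout against 42.8, 29.1 and 37.8 CPM in wild type. Among the others, Zbtb38 rose by 0.51 (adjusted p = 0.0339) in the labelled MLL4 knockdown. Wild type replicate 2 was again the lowest wild type library for Zbtb38, and without it 1 reader was called there in place of 3, with Zbtb38 at 0.39 (adjusted p = 0.0854). Leaving out any labelled MLL4 knockdown library ended the call of Zbtb38 (adjusted p up to 0.109), and so did leaving out wild type replicate 1 (0.0655). Of 16 tested genes of active demethylation and base excision repair, 3 rose and 1 fell in the UTX knockout (median 0.00), and 2 rose and 2 fell in the labelled MLL4 knockdown (median 0.12). In the UTX knockout 1 rose and 0 fell without its replicate 2, and 2 rose and 0 fell without its replicate 3. For the labelled MLL4 knockdown the count was 2 and 0 without its replicate 2, 2 and 1 without its replicate 1 or 3, and 3 and 4 without wild type replicate 1. Apobec1, a cytidine deaminase, rose by 0.67 in the UTX knockout (adjusted p = 0.0166, and 0.0616 without UTX knockout replicate 2) and by 0.72 in the labelled MLL4 knockdown (0.00676). Apex1, the abasic site endonuclease, rose by 0.73 in the labelled MLL4 knockdown (adjusted p = 0.00424). Of 9 tested TET partners, 1 rose and 2 fell in the UTX knockout (median 0.03), and 3 rose and 1 fell in the labelled MLL4 knockdown (median 0.36). In the UTX knockout no partner rose in 7 of the 9 fits that each left out a library. The labelled MLL4 knockdown had 0 higher without its replicate 2, 1 without its replicate 3 and 2 without its replicate 1. Lin28a, an RNA-binding protein, changed by -0.69 in the UTX knockout (adjusted p = 0.00263) and by -0.59 in the labelled MLL4 knockdown (0.00223). Wt1, a zinc finger factor, fell by 2.42 in the UTX knockout (adjusted p = 0.00665) at low level, with 1.03, 0.346 and 0.557 CPM there against 4.15, 2.39 and 3.81 CPM in wild type. Zfp281, also a zinc finger factor, rose by 0.51 in the labelled MLL4 knockdown (adjusted p = 0.0159, and up to 0.0589 without replicate 1 or 2 of that group).

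The methyl donor comes from the S-adenosylmethionine cycle. Of its 15 listed genes, 0 rose and 3 fell in the UTX knockout (median -0.10), and 1 rose and 3 fell in the labelled MLL4 knockdown (median 0.14; 3 rose and 4 fell with replicate number as a block). The UTX knockout count was 0 and 0 without its replicate 2 or 3, and 0 and 1 without wild type replicate 3. With any 1 labelled MLL4 knockdown library left out, 0 rose and 1 fell there. Mat2a, which makes S-adenosylmethionine, fell by 1.35 in the UTX knockout (SE 0.33, edgeR adjusted p = 0.02), with 119.9, 49.9 and 43.7 CPM there against 209.9, 161 and 172 CPM in wild type. It was not called without UTX knockout replicate 2 (-1.14, adjusted p = 0.094) or 3 (-1.07, 0.0762). In the labelled MLL4 knockdown Mat2a stood at 349.6, 226 and 232 CPM, a log2 difference of 0.57 from wild type (adjusted p = 0.217, and 0.0369 with replicate number as a block). Gldc, the glycine decarboxylase, fell by 0.96 in the labelled MLL4 knockdown (adjusted p = 0.000124) and by 0.34 in the UTX knockout (adjusted p = 0.0496). The second Gldc call ended in 8 of the 9 fits that each left out a library, all but the one without wild type replicate 2, with an adjusted p up to 0.158.

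Of 11 genes known to act on Dnmt3 or Tet genes, 2 rose and 2 fell in the UTX knockout (median 0.17), and 6 rose and 2 fell in the labelled MLL4 knockdown (median 0.51). Prdm14, which represses the Dnmt3 genes in mouse embryonic stem cells, had 29.1, 38.5 and 36 CPM in the UTX knockout, 46.7, 55.2 and 53.9 CPM in the labelled MLL4 knockdown, and 16.4, 18.9 and 21.1 CPM in wild type. The 3 groups did not overlap. Prdm14 rose by 0.88 in the UTX knockout (SE 0.15, edgeR adjusted p = 0.00364) and by 1.46 in the labelled MLL4 knockdown (SE 0.15, adjusted p = 6.87e-05). Klf4, a factor of naive pluripotency, rose by 1.47 in the labelled MLL4 knockdown (SE 0.18, adjusted p = 0.000261). Its levels there were 517, 592 and 637 CPM, against 162, 207 and 263 CPM in wild type. Otx2, a homeobox gene of formative cells, had 6.82, 3.72 and 4.13 CPM in the UTX knockout, 1.72, 0.996 and 0.797 CPM in the labelled MLL4 knockdown, and 40.8, 23.5 and 24.5 CPM in wild type. It fell in both perturbed groups, with log2 changes of -2.60 in the UTX knockout (adjusted p = 0.00074) and -4.68 in the labelled MLL4 knockdown (adjusted p = 1.27e-05), and replicate 1 was its highest library in each group, as for Dnmt3a and Dnmt3b.

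Of 15 other genes of formative and primed pluripotency, a list without the Dnmt3 genes, 0 rose and 6 fell in the UTX knockout (median -0.90), and 2 rose and 5 fell in the labelled MLL4 knockdown (median -0.12). Besides Otx2, Sall2 changed by -1.16 in the UTX knockout (edgeR adjusted p = 0.00513) and by -1.34 in the labelled MLL4 knockdown (0.00101), and Grhl2, an epithelial factor, fell by 1.56 in the labelled MLL4 knockdown (0.000407). Of 15 targets of FGF and ERK signalling, 0 rose and 5 fell in the UTX knockout (median -0.28; 3 fell without its replicate 2), and 1 rose and 2 fell in the labelled MLL4 knockdown (median 0.20; 3 rose and 2 fell with replicate number as a block or without wild type replicate 3). Spry2, a feedback inhibitor, fell by 1.23 in the UTX knockout (adjusted p = 0.00171), where it had 56.1, 38.9 and 43.1 CPM, against 82.5, 123 and 117 CPM in wild type. Dusp5, a phosphatase of ERK, changed by -0.95 in the UTX knockout (0.00363) and by -1.01 in the labelled MLL4 knockdown (0.00103). Etv1 rose by 0.91 in the labelled MLL4 knockdown (adjusted p = 0.00179) and fell by 0.57 in the UTX knockout (0.0339). The fall of Etv1 was not called without wild type replicate 1 or 3, or replicate 2 or 3 of either perturbed group, with an adjusted p up to 0.135.

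Among markers of other cells, the summed feeder or fibroblast and neural levels lay below all wild type libraries in both perturbed groups. The 2-cell-like sums did so in the UTX knockout and the trophectoderm sums in the labelled MLL4 knockdown. In the labelled MLL4 knockdown the 2-cell-like sums overlapped with wild type only through its replicate 1. In the UTX knockout the trophectoderm sums overlapped with wild type only through wild type replicate 1. Primitive endoderm and mesendoderm sums overlapped with wild type in both groups, although some genes of the first list passed. The summed level of 13 feeder or fibroblast genes lay between 24 and 40.5 CPM in the UTX knockout, 27.1 and 29.4 CPM in the labelled MLL4 knockdown and 55.4 and 191 CPM in wild type, with Lum at 0 in all 3 groups and Col3a1, Dcn and Postn also at 0 in the UTX knockout. Of 9 tested genes, 4 fell in the UTX knockout and 7 in the labelled MLL4 knockdown. Pdgfra went the other way, with 1.13 in the UTX knockout (edgeR adjusted p = 0.00903) and 2.59 in the labelled MLL4 knockdown (2.91e-05). Sums of 11 trophectoderm genes were 133 to 188 CPM in the UTX knockout, 100.2 to 121 CPM in the labelled MLL4 knockdown and 153 to 608 CPM in wild type, with Elf5 at 0 in the UTX knockout. Wild type replicate 1 stood apart with 153 CPM, against 608 and 551 CPM in replicates 2 and 3. Of 10 tested genes, 1 rose and 6 fell in the UTX knockout against wild type (median -2.01). In the labelled MLL4 knockdown 0 rose and 7 fell (median -2.39). For neural genes (6 of 7 listed were in the table) the sums were 63.8 to 73.8 CPM in the UTX knockout. They were 80.8 to 97.7 CPM in the labelled MLL4 knockdown and 141 to 193 CPM in wild type. Neurog2 was at 0 in the labelled MLL4 knockdown and wild type. Against wild type, 3 of the 5 tested neural genes passed as lower in UTX knockout cells and 0 as higher. For the labelled MLL4 knockdown 2 passed as lower, Nes (-3.19, edgeR adjusted p = 7.79e-06) and Tubb3 (-0.79, 0.00463). Mtap2 went the other way there (0.98, adjusted p = 0.00509), so the lower sum did not hold for every neural gene. The 9 measured 2-cell-like genes gave 1.6 to 6.53 CPM in the UTX knockout, 5.7 to 23 CPM in the labelled MLL4 knockdown and 18.5 to 54.7 CPM in wild type, with Gm4340 at 0 in the labelled MLL4 knockdown. Primitive endoderm sums (11 genes) were 489 to 715 CPM in the UTX knockout, 489.8 to 558 CPM in the labelled MLL4 knockdown and 369.7 to 548 CPM in wild type. Of the 10 tested, 3 rose and 1 fell in the UTX knockout against wild type (median 0.44). In the labelled MLL4 knockdown 4 rose and 1 fell (median 0.84). Mesendoderm sums (7 genes) overlapped in all groups, at 13.1 to 17.7 CPM in the UTX knockout, 13.9 to 20.5 CPM in the labelled MLL4 knockdown and 12.5 to 19.7 CPM in wild type. The 9 embryonic stem cell markers summed to 4989 to 5798 CPM in the UTX knockout, 5821 to 6648 CPM in the labelled MLL4 knockdown and 4068 to 4845 CPM in wild type. Gene by gene, 0 of the 9 rose and 1 fell in the UTX knockout against wild type (median 0.16). In the labelled MLL4 knockdown 4 rose and 1 fell (median 0.24). Zfp42 was the gene that fell in both, by 0.49 (edgeR adjusted p = 0.0354) and 0.75 (0.00294). The part of other cells in the Dnmt3 and Tet values was not tested.

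Genes tied to replication and to the loss of methylation were counted last. Of 30 S phase genes, where Uhrf1 and Dnmt1 are also active, 5 rose and 2 fell in the UTX knockout (median 0.07), and 4 rose and 3 fell in the labelled MLL4 knockdown (median 0.05). The UTX knockout count was 1 and 1 without its replicate 2, 2 and 1 without its replicate 3, 2 and 2 without wild type replicate 3, 3 and 2 without wild type replicate 2, and 3 and 1 with any 1 labelled MLL4 knockdown library left out. For the labelled MLL4 knockdown it was 2 and 1 with any 1 of its own libraries left out. E2f1, which drives S phase genes, rose by 0.68 in the UTX knockout (SE 0.10, edgeR adjusted p = 0.00195), with 103, 109 and 112 CPM there against 72.7, 66.3 and 63.1 CPM in wild type, and by 0.38 in the labelled MLL4 knockdown (0.0156, and up to 0.0582 without replicate 1 or 2 of that group). E2f2, a related factor, rose by 0.57 in the UTX knockout (adjusted p = 0.0169) and by 1.27 in the labelled MLL4 knockdown (0.0001), and the first call ended without UTX knockout replicate 2 (0.62, 0.0503). Orc1, of the origin recognition complex, changed by -0.50 in the UTX knockout (0.00687) and by -0.70 in the labelled MLL4 knockdown (0.000484).

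Of 22 tested germline genes that DNA methylation is known to silence, 3 rose and 3 fell in the UTX knockout (median -0.08), and 6 rose and 3 fell in the labelled MLL4 knockdown (median 0.02), with all-gene medians of -0.01 and -0.02. The UTX knockout count was 1 and 1 without its replicate 2, 2 and 1 without its replicate 3, and 5 and 3 without wild type replicate 1. For the labelled MLL4 knockdown it was 4 and 3 without wild type replicate 3 or its own replicate 1 or 3. There it was also 5 and 3 without its replicate 2, and 7 and 4 without UTX knockout replicate 1 or with replicate number as a block. Sohlh2, a germ cell transcription factor, had 28.4, 29.6 and 28.5 CPM in the UTX knockout, 50.8, 48.3 and 50.2 CPM in the labelled MLL4 knockdown, and 22.4, 16.2 and 18 CPM in wild type. It rose by 0.61 in the UTX knockout (SE 0.13, edgeR adjusted p = 0.011, and 0.0502 without UTX knockout replicate 2) and by 1.40 in the labelled MLL4 knockdown (SE 0.13, adjusted p = 4.83e-05). Tuba3a, a testis tubulin gene with close paralogs that could share reads, rose by 1.38 in the UTX knockout (adjusted p = 0.000568) and by 0.58 in the labelled MLL4 knockdown (0.017, and up to 0.0592 without wild type replicate 3 or replicate 2 or 3 of the labelled MLL4 knockdown). Dpep3, a testis dipeptidase gene, fell by 2.58 in the labelled MLL4 knockdown at low level, with 0.323, 0.226 and 0.266 CPM there against 1.4, 1.66 and 1.84 CPM in wild type (adjusted p = 0.00033).

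Between the labelled MLL4 knockdown and the UTX knockout, the same lists gave these numbers of genes by edgeR. Over all tested genes 28.9% were called there, 13.0% as higher and 16.0% as lower, so counts near these shares do not set a list apart. Of the formative and primed genes 5 rose and 2 fell, of the FGF and ERK targets 5 rose and 1 fell, and of the genes acting on Dnmt3 or Tet genes 4 rose and 1 fell. Heterochromatin and imprint genes also had 4 higher and 1 lower. The S-adenosylmethionine cycle had 4 higher and 2 lower, TET partners 3 higher and 0 lower, readers 2 higher and 1 lower, and demethylation genes 2 higher and 5 lower. Germline genes had 6 higher and 4 lower, S phase genes 1 higher and 3 lower (5 and 5 with replicate number as a block), maintenance cofactors 0 and 1, and H3K36 methyltransferases 0 and 0 (1 and 0 with the block, 3 and 0 without wild type replicate 2). Over the fits that each left out a library, S phase genes had 1 to 5 higher and 0 to 5 lower, readers 0 to 4 and 0 to 1, demethylation genes 1 to 4 and 3 to 5, TET partners 1 to 4 and 0, and heterochromatin and imprint genes 2 to 5 and 1 to 2. In the same order, the S-adenosylmethionine cycle had 3 to 5 and 1 to 3, germline genes 4 to 7 and 3 to 4, FGF and ERK targets 5 to 7 and 1, and the genes acting on Dnmt3 or Tet genes 3 to 5 and 1 to 2. The formative and primed genes had 5 and 2 in every such fit. Mat2a, with a log2 difference of 1.92 (SE 0.34, adjusted p = 0.00199), and Spry2, with 1.37 (SE 0.17, adjusted p = 0.000344), were among those higher in the labelled MLL4 knockdown.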

How the data were processed

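The authors deposited raw read counts per gene symbol in 1 table with a column per library. Per the submitters' processing notes the tools were STAR 2.4 and HTSeq 0.6.1; hg19 and mm9 appear there as builds without their roles. Libraries were made with a TruSeq kit, per the labels' protocols. Annotation, filters and strand setting of the counting: not given in the sources used here. From these counts, genes were filtered with filterByExpr by group, scaled with TMM and tested in edgeR 4.0.16 (R 4.3.3) by its quasi-likelihood test (two-sided, all 9 libraries in 1 fit, group as the only term). Within a comparison, p was adjusted by Benjamini-Hochberg and genes under 0.05 were called. CPM uses the TMM factors, and log2 CPM a prior count of 2. Total counts of 18570746 or more give counts of at least 213 for each of the 8 genes in every library, so spread between libraries, not counting, limits the precision.

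The genes and lists were chosen with earlier results of these data known. Named genes were the 8 genes, up to 3 genes of smallest p that passed against wild type in each list, the 3 nearest patterns of each called gene, and Kdm6a and Kmt2d. Not every gene that met the rule is reported here. Nearest patterns were sought among genes with a mean log2 CPM of at least 3, without clone, model, pseudogene and small RNA names. Lengths are the longest coding transcript in GENCODE M21 (31022 of 33924 symbols matched, 97.9% of tested genes). Promoters are from RefSeq on GRCm38.p6.

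Departures of libraries from their group means were correlated across genes between groups. For replicates 1, 2 and 3 with the same number, r was 0.415, 0.168 and 0.381 between UTX knockout and wild type. It was 0.416, 0.182 and 0.238 between labelled MLL4 knockdown and wild type, and 0.467, 0.181 and 0.308 between the perturbed groups. Replicate 1 against replicate 2 or 3 of another group gave r from -0.412 to -0.0853. Replicates 2 and 3 crossed between groups gave r from -0.0858 to 0.226, beside 0.168 to 0.182 for replicate 2 with replicate 2 and 0.238 to 0.381 for replicate 3 with replicate 3. The values thus set replicate 1 apart, and those of replicate 3 with replicate 3 lay above all these crossed values. Replicate 2 was not clearly paired, since between the perturbed groups its 0.181 lay below the crossed 0.226. The fit with replicate number as a block takes the numbers of the titles as pairing the samples, and is given where it changes a call. Replicates differed by more than sampling noise in every group (chi-square over its degrees of freedom 6.421 to 56.53). The alternatives were RLE size factors, DESeq2 1.42.0, other filters on low counts, the block, removal of the length trend by loess, lane 2 only, only the compared groups, and leaving out each library. List genes and neighbours under left-out libraries were added after seeing the data. The edgeR test was also run on simulated counts, for the UTX knockout against wild type only. These counts lacked the replicate pattern and the length trend, so that run cannot show how the test behaves with them.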

Additional observations from a re-analysis of the deposited data

How the results depend on the processing

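Over 18 alternatives, 387 of the 432 log2 differences of the 8 genes kept their direction and their side of the threshold, 24 lost a call, 20 gained one, and 1 turned its direction: Uhrf1 in the labelled MLL4 knockdown against wild type, at -0.02 with the stricter filter (at least 5 CPM in 3 libraries). The falls of Dnmt3a, Dnmt3b and Dnmt3l in the labelled MLL4 knockdown against wild type, and of Dnmt3l and Uhrf1 against the UTX knockout, were called under all 18. With lane 2 only (replicates 1 and 3), 0 of the 8 genes were called in the UTX knockout by edgeR (3 at an unadjusted p under 0.05) and 2 between the perturbed groups. Tet3 in the labelled MLL4 knockdown was then at 0.71 (adjusted p = 0.0529). Over all genes, lane 2 gave 74, 1341 and 1535 calls in the UTX knockout, the labelled MLL4 knockdown and the direct comparison.

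With replicate number as a block, 3446 genes were called in the UTX knockout against wild type, and the block with the length trend removed gave 4422 there and 6494 in the direct comparison. The block added the calls of Tet2, Tet1 and Dnmt3b given above and changed no other call of the 8 genes. Removal of the length trend without the block gave 2 higher and 3 lower of the 8 genes in the labelled MLL4 knockdown against wild type. Its counts of the 8 genes in the other comparisons were those of the fit with group alone. With only the compared groups in the fit, 1240 genes were called in the UTX knockout, and Dnmt3a was at an adjusted p of 0.0649. Dnmt3a between the perturbed groups was at 0.0524 under RLE size factors and up to 0.155 without a library of either (all but replicate 1 of the labelled MLL4 knockdown). Tet3 in the same comparison was at 0.059 with the stricter filter. DESeq2 and no filter on low counts called Tet2 in the UTX knockout (0.0274 and 0.0119) and Tet1 in the labelled MLL4 knockdown (0.0259 and 0.00803). Leaving out each library in turn gave 2 to 4, 4 to 6 and 2 to 5 called of the 8 genes in the 3 comparisons, and 833 to 2854, 2273 to 4108 and 2556 to 5281 over all genes. Levels, sums and ratios under RLE moved by less than 1 SD in all 75 cases. The causes of these changes were not tested.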
